A study of Mus musculus with 20 samples.

Results

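The G2/M and mitosis genes are 50 genes whose products carry a cell through the end of G2 and through mitosis, and they were taken as every probe set of the deposited table whose gene symbol in the platform annotation was exactly 1 of the 50 names. Of these genes 49 were measured, by 114 of the 45037 probe sets and out of 18193 genes named alone by a probe set. Ccnb1 was not analysed here. A single probe set was present for 16 members and several, up to 5, for the other 33.

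Livers of 9-week-old male mice were profiled on Affymetrix Mouse430_2 arrays, 1 array per animal and 5 animals in each of 4 groups. WT (PXR+/+) and PXR-KO (PXR-/-) mice received by gavage, every 24 h, either CMP013, an inhibitor of the β-secretase BACE1, at 150 mg/kg or the vehicle, 2% HPMC with 1% Tween 80, and were sampled at 96 h. The PXR-KO animals lack the pregnane X receptor, a nuclear receptor that senses foreign compounds, in the whole body. The WT mice are labelled C57BL/6. The labels of the PXR-KO mice give C57BL/6 in 1 field and C57BL/6NTac in another. The background may therefore differ between WT and PXR-KO mice, so that genotype and background cannot be told apart. Each value relates an animal to the mean of vehicle-treated animals with its genotype, as a log2 ratio, so 0 is the vehicle level of that genotype and 1 is a doubling. Levels under vehicle were therefore not compared between genotypes, nor was the level of the deleted gene or of hepatocyte markers checked against the labels. In whole liver, more cells in mitosis and more RNA per cell cannot be told apart.

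Entry into mitosis is driven by the kinase CDK1 bound to B-type cyclins, held back by WEE1 and released by CDC25 phosphatases, with Aurora and Polo-like kinases amplifying the switch. Kinetochores then attach chromosomes to the spindle, motors and bundling proteins shape the spindle, the anaphase-promoting complex destroys cyclin B and securin, and the central spindle directs cytokinesis. Hepatocytes of the adult liver are mostly quiescent, and the transcripts of these genes are known to rise together when liver cells divide.

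Mitotic genes share short promoter elements, the cell cycle genes homology region (CHR, searched as TTTGAA, or TTCAAA on the other strand) and the CCAAT box (CCAAT, or ATTGG on the other strand). The promoters shown are those of members on which the results below turn, with both elements in capitals, as the 120 bases before the RefSeq start in GRCm38.p6, written 5′ to 3′ on the strand of the gene. Cdk1 lies at chr10:69352913-69353032 (minus strand), Ccnb2 at chr9:70421555-70421674 (minus strand), Cdc20 at chr4:118437344-118437463 (minus strand), Ube2c at chr2:164769809-164769928 (plus strand), Mki67 at chr7:135716380-135716499 (minus strand) and Birc5, shown as a promoter with neither element in these bases, at chr11:117849117-117849236 (plus strand).
Cdk1: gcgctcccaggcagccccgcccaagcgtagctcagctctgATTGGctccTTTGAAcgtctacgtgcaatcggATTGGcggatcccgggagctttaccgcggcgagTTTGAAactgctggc
Ccnb2: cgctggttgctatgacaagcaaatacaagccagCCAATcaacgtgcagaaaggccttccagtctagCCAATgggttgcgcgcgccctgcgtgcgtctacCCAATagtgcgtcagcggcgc
Cdc20: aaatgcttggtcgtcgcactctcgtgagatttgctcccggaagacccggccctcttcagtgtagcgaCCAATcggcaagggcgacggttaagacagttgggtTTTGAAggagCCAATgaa
Ube2c: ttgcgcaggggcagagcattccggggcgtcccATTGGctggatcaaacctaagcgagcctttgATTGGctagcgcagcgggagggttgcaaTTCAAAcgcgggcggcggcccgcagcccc
Mki67: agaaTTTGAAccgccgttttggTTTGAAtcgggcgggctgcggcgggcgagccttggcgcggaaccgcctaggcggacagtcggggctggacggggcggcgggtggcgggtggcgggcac
Birc5: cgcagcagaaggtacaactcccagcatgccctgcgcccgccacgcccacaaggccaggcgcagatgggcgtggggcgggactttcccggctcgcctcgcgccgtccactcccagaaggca

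RefSeq promoters of 300 bases, 250 before and 50 after the start, were matched for 41 of the 50 members (44 promoters). The CHR letters were found in 75.0% of these promoters against 17.9% of all 32851 promoters of the table, and the CCAAT letters in 79.5% against 37.4%. Both were found in 68.2% of the members' promoters and in 6.95% of all. Of the 16 members that rose in WT mice 14 had a promoter and 11 of these held both elements, and of the 33 members that did not pass the test 26 had a promoter and 16 held both. In Ccnb2 the CHR letters lay outside the printed bases, 167 bases before and 4 bases after the start. Smc4, Incenp, Cdc25c, Tpx2, Foxm1, Wee1, Spc24, Kif20a and Aurkb were not matched. A match of letters is a description of the window and not a measured site.

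In WT mice, 16 of the 49 measured members rose with CMP013 and none fell, counted by 1 probe set per gene at an adjusted p under 0.05 in limma, where 9.72% of all genes rose and 7.98% fell. At an unadjusted p under 0.05 there were 23 higher and 1 lower. No share over all genes is given for this cutoff, here or below, so such counts are not read as results about a list. With the mean over the probe sets of a gene 21 rose and 1, Pttg1, fell, where 18.2% of all genes were called in either direction. The median log2 fold change of the members was 0.40, with 36 estimates above 0, and the median over all genes was 0. In PXR-KO mice 1 member rose, Wee1, and 2 fell, Ube2c and Kif2c, where 2.5% of all genes rose and 2.14% fell. With trend and robust variances none of the 3 passed, nor did any probe set of the array, and 13 members had an unadjusted p under 0.05 by either fit. The members' median there was -0.26, with 36 of 49 estimates below 0. The 2 responses differed for 14 members, each with the higher response in WT mice, against 7.39% of all genes with a higher and 6.22% with a lower response in WT mice. At an unadjusted p under 0.05 there were 24, none of them with a lower response in WT mice. The median difference over the members was 0.55.

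**Figure D1:**
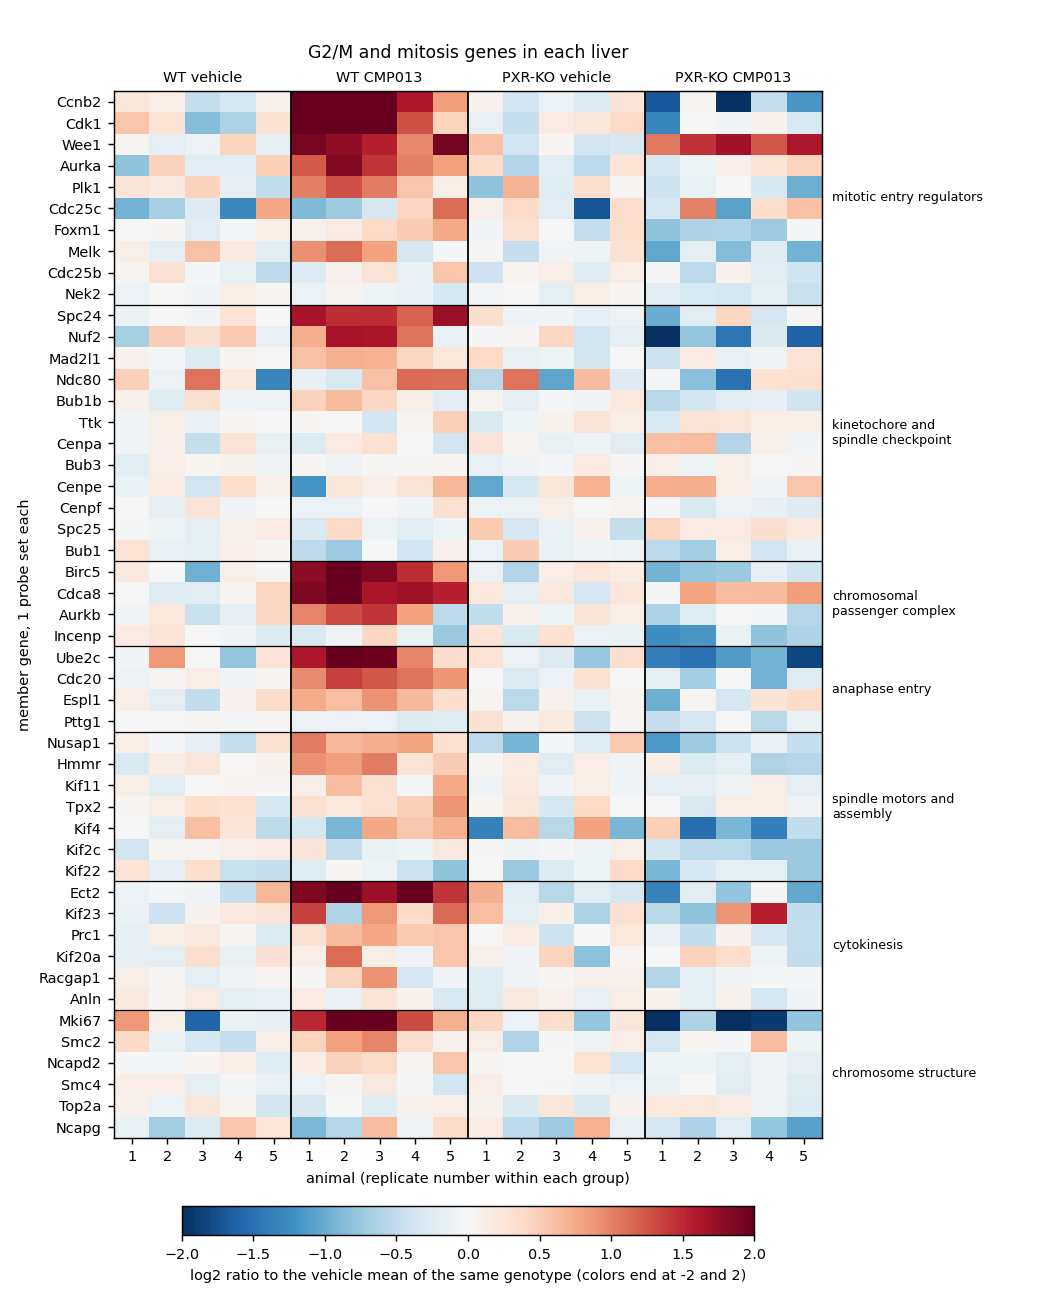
Log2 ratio to the vehicle mean of the same genotype (color, ending at -2 and 2) for the 49 measured members (rows, by role and then by WT response) in each of 20 animals (columns, by group). The WT CMP013 columns are the reddest, and the PXR-KO CMP013 columns are mostly pale to blue except for Wee1.

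The shift was present in each animal when the median over the 49 members was taken. That median was 0.26, 0.46, 0.62, 0.32 and 0.37 in WT CMP013 replicates 1 to 5, and from -0.05 to 0.02 in the WT vehicle animals. In PXR-KO CMP013 replicates 1 to 5 it was -0.34, -0.23, -0.11, -0.13 and -0.26, and from -0.09 to 0.05 under vehicle. The treated and vehicle animals did not overlap in either genotype, and they lay on opposite sides of 0 in the 2 genotypes. Between 22 and 30 members exceeded a 1.25-fold increase in a WT CMP013 animal, against 3 to 6 in a WT vehicle animal. Over all genes the share past that increase was 20.9 to 27.1% in the treated and 6.6 to 9.2% in the vehicle animals. Between 16 and 27 members exceeded a 1.25-fold decrease in a PXR-KO CMP013 animal, against 5 to 12 in a PXR-KO vehicle animal. Over all genes the share past that decrease was 17.2 to 21.7% in the treated and 8.9 to 16.1% in the vehicle animals. In 12 members all 5 treated WT animals were above the vehicle animals and in 1, Pttg1, below them (10.2% and 9.01% of all genes). All 5 were past a 1.25-fold increase for 12 members and past a decrease for none (6.46% and 5.17%). The treated PXR-KO animals were above the vehicle animals for Wee1 (4.79% of all genes) and below them for Ube2c, Kif2c and Nek2 (5.11%). There all 5 were past a 1.25-fold increase for 1 member (2.87%) and past a decrease for 3 (2.59%). Replicate 5 of the treated WT animals held the lowest of the 5 values for 23 members and the highest for 14, and PXR-KO CMP013 replicate 1 was the lowest of its group for 22 members.

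The count depended on the probe set that stood for a gene. With any probe set of a gene counted, 26 of 49 members rose in WT mice and none fell, where 12.6% of all genes had at least 1 probe set that rose and 10.9% had 1 that fell. Of the 114 probe sets 34 rose and none fell, against 7.67% and 6.72% of all probe sets. Members had more probe sets per gene than genes at large (mean 2.33 against 1.92), which gives them more chances to be counted in this way. The response was higher in WT mice at some probe set for 25 members (9.36% of all genes) and lower at some probe set for 2, Pttg1 and Incenp (8.73%), which came to 31 probe sets higher and 2 lower (5.47% and 5.49% of all probe sets). In PXR-KO mice 1 member rose and 4 fell at some probe set, Ube2c, Kif2c, Nek2 and Cenpa (3.6% and 2.75% of all genes), or 2 and 4 probe sets (2.12% and 1.54%). The Nek2 and Cenpa probe sets that fell are marked as able to bind related transcripts. No member had probe sets called in opposite directions in any comparison.

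Some vehicle animals, WT replicates 3 and 4 and PXR-KO replicates 2 and 4, stood apart from the other 6 on the second principal component of all probe sets (scores of 49.2 to 73.3 against -8.2 to 15.6). Without these 4 animals 8 members rose in WT mice, namely Ccnb2, Wee1, Spc24, Birc5, Cdca8, Cdc20, Ect2 and Prc1, 1 fell in PXR-KO mice, Ube2c, and 11 responses differed. The share of all probe sets called went in the same fits from 14.4% to 7.35%, from 3.65% to 0.806% and from 11% to 5.65%. The median of the members was then 0.40 in WT mice, -0.19 in PXR-KO mice and 0.55 for the difference. With quantile normalization of the log2 ratios 7 of the 16 passed in WT mice, the 8 just named without Prc1, and 7 of the 14 differing responses. That step was run on ratios to the vehicle mean, not on intensities, and gives every array the same spread. Before it, the SD over all probe sets was 0.334 to 0.395 in WT vehicle arrays and 0.587 to 0.704 in WT CMP013 arrays.

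Among the regulators of mitotic entry, 4 of 10 measured members rose in WT mice, Cdk1, Ccnb2, Wee1 and Aurka, with a group median of 0.57. Cdk1, the kinase that starts mitosis, was at 0.56, 0.28, -0.86, -0.63 and 0.31 in the WT vehicle animals and at 2.13, 2.0, 2.17, 1.28 and 0.44 with CMP013. The 2 groups overlapped by 1 animal, treated replicate 5, and the log2 fold change was 1.67 (SE 0.39, adjusted p = 0.0191), a 3.18-fold increase. In PXR-KO mice Cdk1 was at -0.15, -0.46, 0.17, 0.22 and 0.39 under vehicle and at -1.3, -0.01, -0.08, 0.07 and -0.3 with CMP013, a log2 fold change of -0.36 (SE 0.27, adjusted p = 0.495). The responses differed by 2.03 (SE 0.50, adjusted p = 0.0131). Without the 4 vehicle animals both calls for Cdk1 were lost, with adjusted p = 0.106 in WT mice and 0.0837 for the difference.

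Ccnb2, cyclin B2, a partner of CDK1, was at 0.23, 0.13, -0.48, -0.34 and 0.09 under vehicle and at 2.06, 2.67, 2.22, 1.62 and 0.84 with CMP013 in WT mice, with no overlap. The PXR-KO vehicle animals were at 0.07, -0.39, -0.12, -0.26 and 0.25 and the treated animals at -1.69, 0.06, -1.98, -0.47 and -1.17, so that 4 of 5 treated animals were below every vehicle animal. The log2 fold change was 1.95 (SE 0.31, adjusted p = 0.00276) in WT and -0.96 (SE 0.36, adjusted p = 0.17) in PXR-KO mice, and the difference was 2.91 (SE 0.50, adjusted p = 0.000879).

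Wee1, the kinase that holds CDK1 inactive, was the 1 member that rose in both genotypes. It was at 0.05, -0.18, -0.11, 0.45 and -0.18 under vehicle and at 1.9, 1.78, 1.55, 0.96 and 1.92 with CMP013 in WT mice. The PXR-KO vehicle animals were at 0.59, -0.38, 0.04, -0.36 and -0.32 and the treated animals at 1.05, 1.44, 1.68, 1.24 and 1.62. All 10 treated animals lay above the vehicle animals of their genotype. Treated over vehicle, the log2 fold changes were 1.61 (SE 0.20, adjusted p = 0.000766) and 1.49 (SE 0.21, adjusted p = 0.00597), and the difference of 0.12 (SE 0.30) did not pass the test (adjusted p = 0.844). Its other probe set rose by 2.89 in WT mice and 2.35 in PXR-KO mice. The PXR-KO call at the first probe set had an adjusted p = 0.0501 without the 4 vehicle animals and 0.0536 with trend and robust variances.

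Aurka, the Aurora kinase of centrosomes and spindle poles, was at -0.81, 0.46, -0.23, -0.21 and 0.47 under vehicle and at 1.23, 1.83, 1.43, 1.01 and 0.82 with CMP013 in WT mice, without overlap (log2 fold change 1.33, SE 0.27, adjusted p = 0.0103). Its PXR-KO estimate was 0.22 (SE 0.22), and the difference of 1.11 (SE 0.37) did not pass the test (adjusted p = 0.059). Without the 4 vehicle animals the WT call had an adjusted p = 0.0728, and the mean over its probe sets gave 0.45 (adjusted p = 0.138).

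Foxm1, a transcription factor that drives many genes of this phase, passed the test in the difference alone. With CMP013 it was at 0.08, 0.17, 0.39, 0.51 and 0.75 in WT mice and at -0.8, -0.61, -0.6, -0.72 and -0.02 in PXR-KO mice. The vehicle animals ranged from -0.21 to 0.12 and from -0.48 to 0.35. Neither response passed the test by itself (log2 fold changes 0.40 and -0.57, adjusted p = 0.0789 and 0.134), while the difference of 0.97 (SE 0.24) did (adjusted p = 0.0129). The mean over all Foxm1 probe sets gave a difference of 0.34 (adjusted p = 0.434). Plk1, the Polo-like kinase (WT log2 fold change 0.75, adjusted p = 0.0759), and Melk (0.40, adjusted p = 0.433) did not pass the test in WT mice. Cdc25b (0.17), Cdc25c (0.40) and Nek2 (-0.12) did not either, although another probe set of Cdc25c, a phosphatase that releases CDK1, rose by 2.09 (SE 0.41, adjusted p = 0.00796). That probe set was named after its values were seen and is marked as able to bind related transcripts, as are some of the other probe sets named in this way below (of Bub1b, Incenp, Kif22 and Kif2c).

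**Figure D2:**
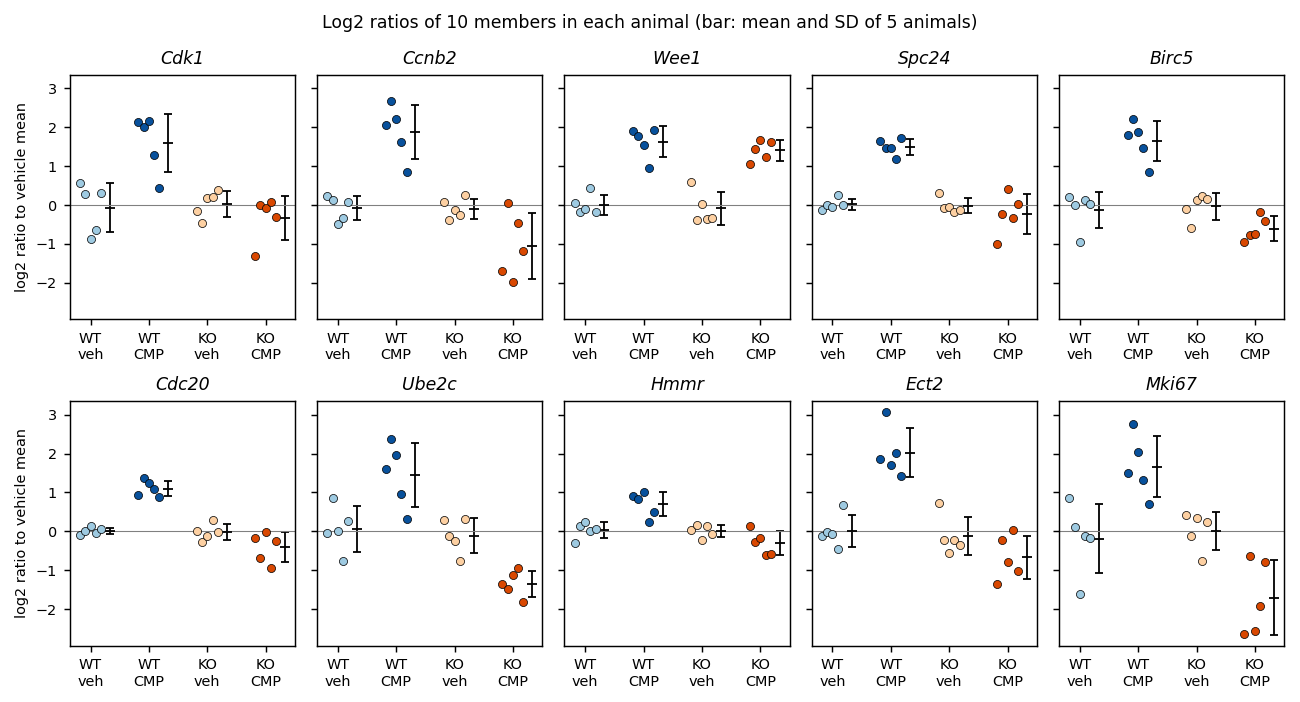
Log2 ratio to the vehicle mean (vertical axis) of 10 members in each animal (points) of the WT and PXR-KO (KO) groups given vehicle (veh) or CMP013 (CMP), with the mean and SD of 5 animals as bars. Wee1 is high in both treated groups, whereas the other 9 are high in treated WT animals and lie near or below 0 in most treated PXR-KO animals.

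Of 12 kinetochore and spindle checkpoint members, 2 rose in WT mice, and the group median was 0.04. Spc24, a subunit of the NDC80 complex that grips microtubules, was at -0.13, -0.01, -0.06, 0.27 and 0.01 under vehicle and at 1.65, 1.47, 1.47, 1.18 and 1.72 with CMP013. These WT groups were far apart, with a log2 fold change of 1.48 (SE 0.12, adjusted p = 8.17e-05). In PXR-KO mice the vehicle animals were at 0.32, -0.07, -0.06, -0.17 and -0.12 and the treated animals at -0.99, -0.23, 0.41, -0.34 and 0.02, on both sides of 0, and the responses differed by 1.69 (SE 0.27, adjusted p = 0.000433). Mad2l1, the checkpoint protein that restrains anaphase, was at 0.08, -0.02, -0.27, 0.02 and 0.0 under vehicle and at 0.58, 0.71, 0.69, 0.41 and 0.21 with CMP013 in WT mice, without overlap (0.56, SE 0.12, adjusted p = 0.0121). The difference for Mad2l1 was 0.56 (SE 0.20, adjusted p = 0.0873), and its WT call had an adjusted p = 0.0722 without the 4 vehicle animals.

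Nuf2, another subunit of the NDC80 complex, moved apart in the 2 genotypes without passing the test in either. WT animals were at -0.67, 0.49, 0.32, 0.53 and -0.15 under vehicle and at 0.72, 1.65, 1.64, 1.08 and -0.14 with CMP013. PXR-KO animals were at -0.03, 0.03, 0.41, -0.38 and -0.18 under vehicle and at -2.09, -0.77, -1.44, -0.29 and -1.62 with CMP013. In each genotype 1 treated animal lay within the vehicle range, and the log2 fold changes of 0.89 (adjusted p = 0.145) and -1.21 (adjusted p = 0.0621) differed by 2.10 (SE 0.50, adjusted p = 0.0109). Estimates of the other 9 members by 1 probe set ranged from -0.32 (Bub1) to 0.40 (Ndc80) in WT mice, and none passed the test. Of these, 4 rose at another probe set, chosen after its values were seen. These were Cenpf, a kinetochore protein (1.10, SE 0.13, adjusted p = 0.000588), Spc25, a partner of Spc24 (0.75, SE 0.17, adjusted p = 0.0175), Bub1b, a checkpoint protein (1.97, SE 0.48, adjusted p = 0.0223), and Ttk, a checkpoint kinase (0.84, SE 0.19, adjusted p = 0.0172). At that probe set Spc25 had its 5 treated PXR-KO animals at -2.93, -1.81, -0.98, -1.22 and -1.56, all below the vehicle animals of -0.84 to 0.37, with a log2 fold change of -1.45 (adjusted p = 0.0611).

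The chromosomal passenger complex, which corrects faulty attachments and later acts at the central spindle, had 2 of 4 members that rose in WT mice, with a median of 1.27. Birc5, survivin, was at 0.2, -0.01, -0.96, 0.12 and 0.02 under vehicle and at 1.79, 2.22, 1.87, 1.47 and 0.86 with CMP013 in WT mice. The PXR-KO vehicle animals were at -0.11, -0.59, 0.13, 0.24 and 0.15 and the treated animals at -0.94, -0.77, -0.74, -0.17 and -0.4. The WT groups did not overlap and the PXR-KO groups did. Its log2 fold changes were 1.77 (SE 0.29, adjusted p = 0.00305) and -0.57 (SE 0.19, adjusted p = 0.141), with a difference of 2.33 (SE 0.36, adjusted p = 0.000355).

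Cdca8, borealin, was at 0.01, -0.24, -0.23, 0.06 and 0.43 under vehicle and at 1.86, 2.04, 1.64, 1.69 and 1.55 with CMP013 in WT mice (1.74, SE 0.15, adjusted p = 9.39e-05). In PXR-KO mice it was at 0.21, -0.19, 0.19, -0.35 and 0.23 under vehicle and at -0.03, 0.79, 0.61, 0.64 and 0.83 with CMP013, so that 4 of 5 treated animals were above every vehicle animal. That response was 0.55 (SE 0.19, adjusted p = 0.137), and the difference was 1.19 (SE 0.24, adjusted p = 0.0035). Its other probe sets, both marked as able to bind related transcripts, gave -0.28 and -0.30 in PXR-KO mice, so the sign there rested on the probe set. Aurkb, the kinase of the complex, was at -0.06, 0.21, -0.44, -0.16 and 0.42 under vehicle and at 0.97, 1.3, 1.43, 0.8 and -0.52 with CMP013 in WT mice. Treated replicate 5 was below every vehicle animal and the other treated animals were above them all, and the response of 0.80 (SE 0.34) did not pass the test (adjusted p = 0.161). Incenp, the scaffold, was at -0.19 (adjusted p = 0.605) by the probe set that stood for it. Its probe sets disagreed, since 1 rose in WT mice (0.91, SE 0.24, adjusted p = 0.0305) and another responded less in WT mice than in the PXR-KO animals (difference -2.60, SE 0.67, adjusted p = 0.0174).

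Of the 4 members that open anaphase 3 rose in WT mice, with a median of 0.88. Cdc20, the activator of the anaphase-promoting complex, was at -0.1, 0.02, 0.13, -0.05 and 0.05 under vehicle and at 0.94, 1.36, 1.24, 1.09 and 0.88 with CMP013 in WT mice. In PXR-KO mice it was at 0.01, -0.28, -0.11, 0.29 and -0.01 under vehicle and at -0.18, -0.68, -0.01, -0.94 and -0.25 with CMP013. The WT groups were well separated and the PXR-KO groups overlapped. The log2 fold changes were 1.09 (SE 0.11, adjusted p = 0.000224) and -0.39 (SE 0.19, adjusted p = 0.274), and the difference was 1.49 (SE 0.22, adjusted p = 0.000247).

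Ube2c, the ubiquitin-conjugating enzyme that works with the anaphase-promoting complex, was the 1 member that rose in WT and fell in PXR-KO mice. In WT mice the vehicle animals were at -0.05, 0.87, 0.0, -0.77 and 0.27 and the treated animals at 1.61, 2.38, 1.96, 0.97 and 0.33, with 1 treated animal inside the vehicle range. In PXR-KO mice the vehicle animals were at 0.28, -0.11, -0.26, -0.76 and 0.32 and the treated animals at -1.36, -1.49, -1.13, -0.94 and -1.82, all below them. Treated over vehicle, the log2 fold changes were 1.39 (SE 0.41, adjusted p = 0.0465) and -1.24 (SE 0.23, adjusted p = 0.0202), a 2.62-fold increase and a 2.36-fold decrease, and they differed by 2.63 (SE 0.49, adjusted p = 0.00178). The WT call was lost in 8 of the 10 fits that left out 1 animal, all but those without vehicle replicate 2 or treated replicate 5, with adjusted p up to 0.1, and the PXR-KO call without treated replicate 2 (adjusted p = 0.0574), while the difference was kept in all 20. Without the 4 vehicle animals the WT response had an adjusted p = 0.196, and with trend and robust variances both responses missed the threshold (adjusted p = 0.0554 and 0.0758).

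Espl1, separase, which cuts the cohesin that holds sister chromatids, was at 0.13, -0.2, -0.49, 0.09 and 0.37 under vehicle and at 0.74, 0.6, 0.9, 0.65 and 0.33 with CMP013 in WT mice, with 1 treated animal inside the vehicle range (0.67, SE 0.17, adjusted p = 0.0266). The call was lost without vehicle replicate 2 or any of treated replicates 1 to 4, with adjusted p up to 0.062, and without the 4 vehicle animals (adjusted p = 0.0993), and the difference of 0.70 did not pass the test (adjusted p = 0.172). Pttg1, securin, the inhibitor of separase, was at -0.17 (adjusted p = 0.157) by its first probe set. Its 5 treated WT animals, from -0.28 to -0.11, were all below the vehicle animals of -0.04 to 0.03. At another Pttg1 probe set the difference of the responses was -1.01 (SE 0.29, adjusted p = 0.031), and the mean over its probe sets fell by 0.38 in WT mice (adjusted p = 0.0168).

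Among spindle motors and assembly factors 2 of 7 members rose in WT mice, Nusap1 and Hmmr, and the median was 0.35. Hmmr, a microtubule-binding protein of the spindle pole, was at -0.31, 0.15, 0.23, 0.01 and 0.07 under vehicle and at 0.91, 0.83, 1.02, 0.25 and 0.5 with CMP013 in WT mice. The PXR-KO vehicle animals were at 0.03, 0.17, -0.21, 0.13 and -0.07 and the treated animals at 0.14, -0.27, -0.18, -0.6 and -0.57. The lowest treated WT animal was just above the highest vehicle animal. Its log2 fold changes were 0.67 (SE 0.16, adjusted p = 0.0223) and -0.31 (SE 0.15, adjusted p = 0.29), and the difference was 0.98 (SE 0.23, adjusted p = 0.0086). The WT call was lost without vehicle replicate 1 or any of treated replicates 1 to 3 (adjusted p up to 0.0528), and without the 4 vehicle animals both calls were (0.73, adjusted p = 0.0704, and a difference of 0.95, adjusted p = 0.063), with estimates about as large on fewer arrays, although 4 of the 5 Hmmr probe sets rose, by 0.67 to 0.91.

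Nusap1, which bundles spindle microtubules, was at 0.14, -0.03, -0.17, -0.46 and 0.29 under vehicle and at 1.04, 0.67, 0.73, 0.79 and 0.31 with CMP013 in WT mice, without overlap (0.75, SE 0.17, adjusted p = 0.0147). The PXR-KO vehicle animals were at -0.52, -0.93, -0.03, -0.25 and 0.53 and the treated animals at -1.15, -0.71, -0.43, -0.13 and -0.46, which overlapped widely. Its difference of 1.09 (SE 0.33, adjusted p = 0.0413) was lost in 14 of the 20 fits without 1 animal, with adjusted p up to 0.0738. The mean over both Nusap1 probe sets gave 0.14 in WT mice (adjusted p = 0.534), and without the 4 vehicle animals neither call was kept (adjusted p = 0.083 and 0.068).

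Kif2c, a motor that takes microtubule ends apart at the centromere, was at 0.03, -0.09, -0.02, -0.08 and 0.11 under vehicle and at -0.37, -0.53, -0.54, -0.75 and -0.75 with CMP013 in PXR-KO mice. The treated animals all lay below the vehicle animals, and Kif2c fell by 0.58 (SE 0.10, adjusted p = 0.0145), a 1.49-fold decrease. That call was lost without the 4 vehicle animals (adjusted p = 0.0606), with trend and robust variances (0.0716) and with the mean over its probe sets (0.054). In WT mice the treated animals were at 0.26, -0.48, -0.13, -0.1 and 0.2 and the vehicle animals between -0.39 and 0.17, a log2 fold change of -0.06 (adjusted p = 0.871). The difference of 0.52 (SE 0.19) did not pass the test at this probe set (adjusted p = 0.0834) and passed it at others (1.48, adjusted p = 0.0307, and 0.61, adjusted p = 0.0219). Kif11, the motor that separates spindle poles, was at 0.14, 0.61, 0.3, -0.03 and 0.75 with CMP013 in WT mice and between -0.21 and 0.11 under vehicle, and its response of 0.36 (SE 0.15) did not pass the test (adjusted p = 0.155). Tpx2, Kif4 and Kif22 were at 0.35, 0.12 and -0.21. At other probe sets Tpx2, which activates Aurora A, rose (1.02, SE 0.27, adjusted p = 0.0322), as did Kif22, a motor that binds chromosome arms (0.47, adjusted p = 0.0296, and 1.23, adjusted p = 0.0309).

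**Figure D3:**
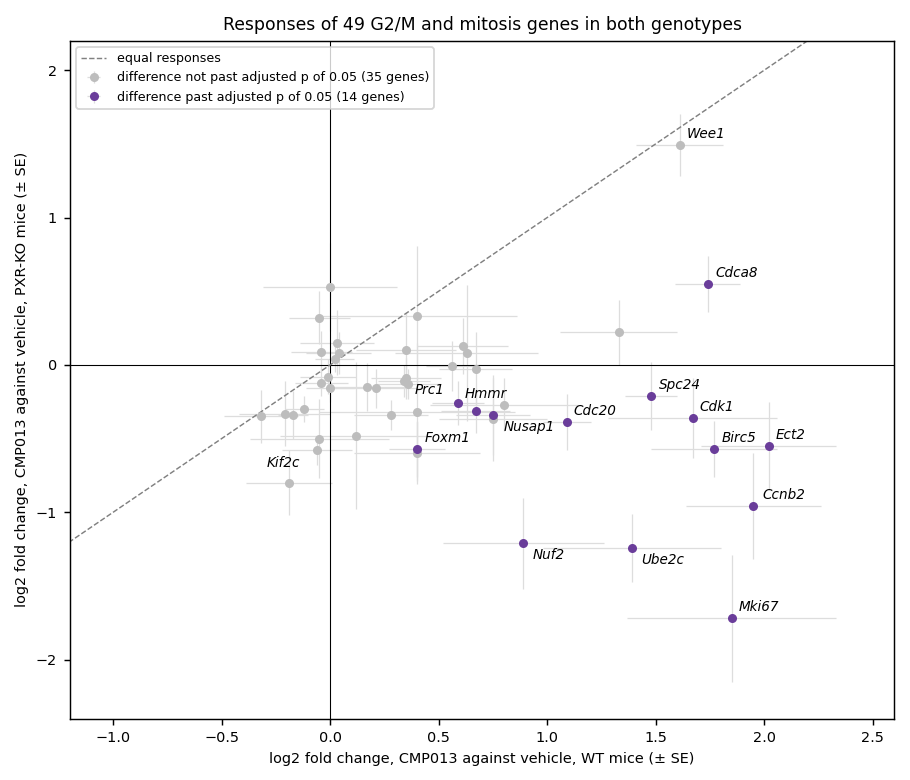
Log2 fold change of CMP013 against vehicle in WT mice (horizontal axis) and PXR-KO mice (vertical axis) for the 49 measured members (points, with SE bars), colored by whether the 2 responses differed at an adjusted p of 0.05. The 14 members that differed lie to the right of the dashed line of equal responses, and Wee1 lies near it.

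Cytokinesis genes had 2 of 6 members that rose in WT mice, Ect2 and Prc1, with a median of 0.47. Ect2, the exchange factor that activates RhoA at the cleavage furrow, had the highest WT estimate among the probe sets that stood for the 49 members. It was at -0.11, -0.02, -0.07, -0.46 and 0.67 under vehicle and at 1.86, 3.07, 1.71, 2.02 and 1.43 with CMP013. In PXR-KO mice the vehicle animals were at 0.72, -0.21, -0.55, -0.21 and -0.34 and the treated animals at -1.34, -0.23, -0.79, 0.03 and -1.02. The WT groups did not overlap, and 2 of the 5 treated PXR-KO animals lay inside the vehicle range. The log2 fold changes were 2.02 (SE 0.31, adjusted p = 0.00213), a 4.05-fold increase, and -0.55 (SE 0.30, adjusted p = 0.344), with a difference of 2.57 (SE 0.45, adjusted p = 0.00112).

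Prc1, which bundles the central spindle, was at -0.17, 0.12, 0.18, 0.04 and -0.28 under vehicle and at 0.31, 0.64, 0.77, 0.53 and 0.56 with CMP013 in WT mice, without overlap (0.59, SE 0.12, adjusted p = 0.0108). In PXR-KO mice it was at 0.01, 0.15, -0.41, -0.01 and 0.21 under vehicle and at -0.13, -0.49, 0.08, -0.32 and -0.48 with CMP013. The responses differed by 0.84 (SE 0.19, adjusted p = 0.00866), and both Prc1 probe sets rose in WT mice, the other 1 marked as able to bind related transcripts. Kif23, a kinesin of the central spindle, was at 1.36, -0.6, 0.86, 0.36 and 1.13 with CMP013 in WT mice and between -0.41 and 0.26 under vehicle. Treated replicate 2 was below every vehicle animal and the other 4 above them, and the response of 0.63 (SE 0.33) did not pass the test (adjusted p = 0.262). Racgap1, the partner of Kif23, was at 0.21 by its first probe set, and another probe set of it rose by 2.11 (SE 0.31, adjusted p = 0.00182), with treated WT animals at 2.17, 2.78, 1.24, 2.54 and 2.07. Kif20a and Anln were at 0.35 and -0.01.

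Chromosome structure genes had 1 of 6 members that rose in WT mice, Mki67, and the median was 0.15. Mki67, the Ki-67 protein that coats mitotic chromosomes and is used as a marker of cycling cells, was at 0.86, 0.11, -1.6, -0.13 and -0.17 under vehicle and at 1.51, 2.77, 2.04, 1.31 and 0.71 with CMP013 in WT mice. In PXR-KO mice it was at 0.41, -0.12, 0.35, -0.77 and 0.23 under vehicle and at -2.63, -0.62, -2.55, -1.91 and -0.79 with CMP013. In both genotypes 1 treated animal lay inside the vehicle range. Treated over vehicle, the log2 fold changes were 1.85 (SE 0.48, adjusted p = 0.0279) and -1.72 (SE 0.43, adjusted p = 0.0567), and their difference of 3.57 (SE 0.67, adjusted p = 0.00202) was the highest among those probe sets. The WT call was lost without vehicle replicate 4 or 5 or treated replicate 2 or 3 (adjusted p up to 0.0631), and without the 4 vehicle animals (adjusted p = 0.105).

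Condensin, which compacts chromosomes, was measured by Smc2, Smc4, Ncapd2 and Ncapg, and none of them passed the test in WT mice. Smc2 was at 0.44, 0.82, 0.97, 0.32 and 0.09 with CMP013 and at 0.39, -0.15, -0.34, -0.46 and 0.13 under vehicle, with overlap (0.61, SE 0.21, adjusted p = 0.0835). Its other probe sets gave -0.08, -0.19, -0.08 and -0.31 in WT mice, none past the test, so the sign rested on the probe set. Ncapd2 was at 0.15, 0.46, 0.38, 0.03 and 0.55 with CMP013 and between -0.24 and 0.13 under vehicle, a log2 fold change of 0.34 (adjusted p = 0.0966). Smc4 and Ncapg were at -0.04 and -0.05. Top2a, the topoisomerase that untangles sister chromatids, was at -0.04 by the probe set that stood for it. Its probe set of highest response, named after its values were seen, was at 1.94, 2.26, 1.99, 1.7 and 1.35 with CMP013 in WT mice and at 0.1, 0.35, -0.26, -0.63 and 0.26 under vehicle. The remaining Top2a probe set was at -1.83, -1.15, -0.34, -1.38 and -0.74 with CMP013 in WT mice and between -1.05 and 0.4 under vehicle, a log2 fold change of -1.04 (adjusted p = 0.0657), so the Top2a probe sets did not move together. At the probe set of highest response the log2 fold change was 1.89 (SE 0.22, adjusted p = 0.000547) in WT and -0.93 (SE 0.24, adjusted p = 0.0645) in PXR-KO mice, a difference of 2.81 (adjusted p = 3.39e-05).

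**Figure D4:**
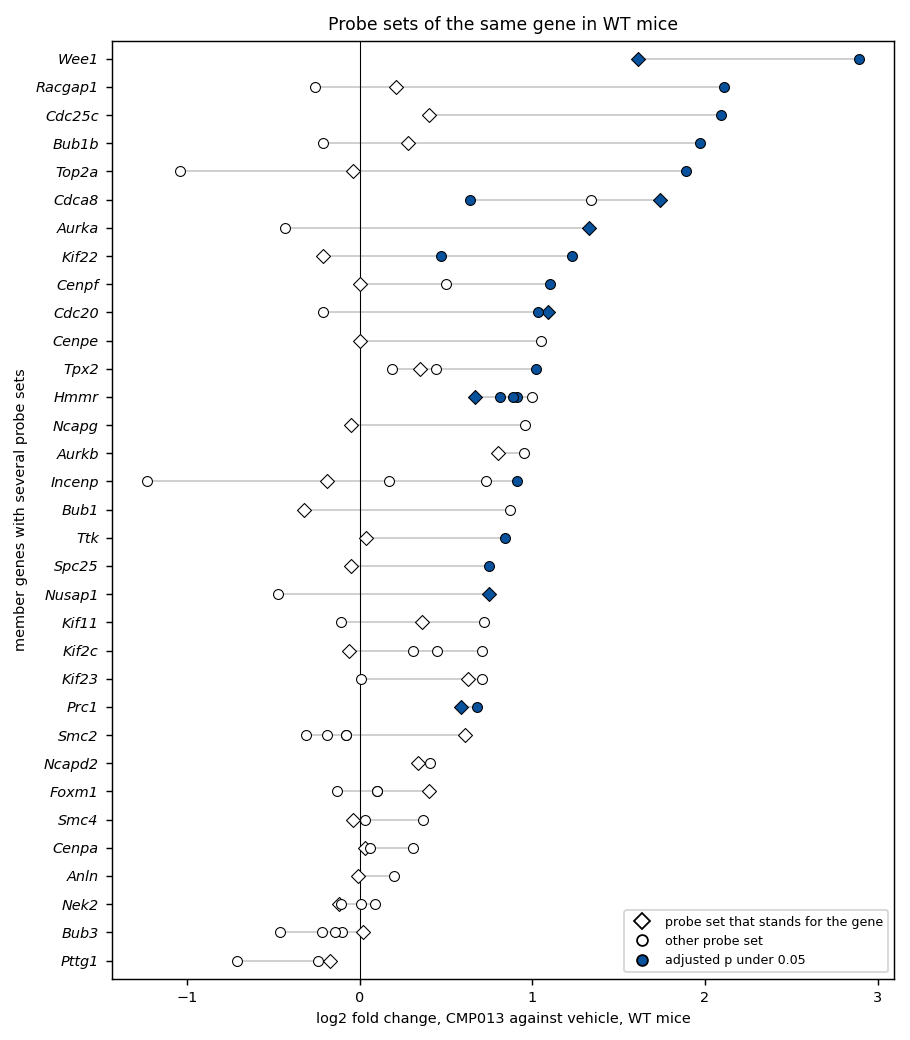
Log2 fold change of CMP013 against vehicle in WT mice (horizontal axis) at each probe set of the 33 members with several (rows), with diamonds for the probe set that stood for the gene and filled symbols for an adjusted p under 0.05. In 15 genes some but not all probe sets rose, and in 10 genes the diamond is open while another probe set is filled.

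Side by side, the share of members that rose in WT mice by 1 probe set was 3 of 4 for anaphase entry, 2 of 4 for the passenger complex, 4 of 10 for entry regulators, 2 of 6 for cytokinesis, 2 of 7 for spindle motors and assembly, 2 of 12 for kinetochores and 1 of 6 for chromosome structure. With any probe set counted these became 3 of 4, 3 of 4, 5 of 10, 3 of 6, 4 of 7, 6 of 12 and 2 of 6, so that the low place of kinetochore genes rested on the probe set chosen. Over all genes 9.72% rose by 1 probe set and 12.6% with any probe set counted. Differences between the roles were not tested. In PXR-KO mice the median was below 0 in each of the 7 roles, from -0.42 for the passenger complex to -0.08 for kinetochores.

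Other genes of the same phase, 59 measured and not among the members, had 16 that rose and 1 that fell, Ccnf (-1.09), in WT mice, with a median of 0.37. By 1 probe set 9.72% of all genes rose and 7.98% fell in WT mice, and 2.5% rose and 2.14% fell in PXR-KO mice. Cks1b, a CDK-binding subunit (log2 fold change 1.61), Ckap2 (2.06), Pbk, a mitotic kinase (1.26), and Esco2, a cohesin acetyltransferase (1.72), had the smallest adjusted p, from 4.86e-05 to 0.00176. In PXR-KO mice Kif14 rose (1.55) and Ccna2, cyclin A2 (-0.45), Cep55 (-0.69) and Ska1 (-1.97) fell. The median of the 59 genes there was -0.17, with 42 estimates below 0. The response of 17 of the 59 was higher in WT mice and that of 1 was lower (7.39% and 6.22% of all genes), with a median difference of 0.58. Among 33 measured genes of G1/S and DNA replication, 10 rose and 3 fell in WT mice, with a median of 0.31, and Mcm6 (1.95), Mcm2 (1.68) and Mcm5 (1.30), parts of the replicative helicase, and Ccnd1, cyclin D1 (0.93), led them. Mcm7, another subunit of that helicase (-0.68), Mcm10 (-0.81) and Cdk2 (-0.32) fell. With any probe set counted 22 of the 59 and 15 of the 33 rose in WT mice, and 1 and 3 fell (12.6% and 10.9% of all genes). By 1 probe set none of these 33 rose in PXR-KO mice and 2 fell, Ccnd3 (-0.47) and Mcm10 (-1.28), with a median of 0.05. With any probe set counted 1 rose and 2 fell there (3.6% and 2.75% of all genes), and 1 gene was called in both directions. At an unadjusted p under 0.05 3 of the 33 were higher and 4 lower there.

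The anaphase-promoting complex, taken as its core subunits with Fzr1, an activator, and Fbxo5, an inhibitor, had 1 of 14 genes that rose in WT mice, Cdc27 (0.48, adjusted p = 0.0415), and none that fell (2 at an unadjusted p under 0.05). Over all genes 9.72% rose and 7.98% fell, so the 1 rise is near the share at large. A mixed list was taken of E2F factors, their partners, the retinoblastoma family and subunits of the DREAM and MMB complexes, which silence and then activate mitotic promoters. Of its 19 genes 5 rose and 4 fell in WT mice. E2f6, a repressor of the E2F family (1.46), E2f3 (0.99), Tfdp1 (0.58), Rbl1 (0.56) and Lin37 (0.47) rose. Tfdp2, a dimerization partner of E2F (-0.68), Rbbp4 (-0.62), Rbl2 (-0.48) and E2f8 (-1.07) fell. Of 15 checkpoint kinases and CDK inhibitors 1 rose by 1 probe set in WT mice, Gadd45a (1.91), and 2 fell, Cdkn1c, an inhibitor of CDKs (-1.07), and Gadd45g (-1.71). With any probe set counted 4 of the 15 rose and 2 fell in WT mice (12.6% and 10.9% of all genes). In PXR-KO mice Btg2, an antiproliferative gene, rose (1.37), and 2 of the 15 did with any probe set counted (3.6% of all genes).

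Markers of other liver cells moved in the same comparisons, and their part in the members' responses was not tested. By 1 probe set 9.72% of all genes rose and 7.98% fell in WT mice, and 2.5% rose and 2.14% fell in PXR-KO mice. The response was higher in WT mice for 7.39% of all genes and lower for 6.22%. Single calls in these short lists are therefore not read as results about a list. In WT mice 5 of 8 sinusoidal endothelial markers fell, and their per-animal median ran from -0.47 to -0.41 with CMP013 against -0.11 to 0.12 under vehicle. In PXR-KO mice 1 of the 8 rose, Lyve1 (1.12), and 1 fell, Kdr (-0.41), with per-animal medians from -0.36 to -0.08 against -0.02 to 0.06, and 2 of the 8 differed between the genotypes. Kupffer cell and macrophage markers fell for 3 of 12 in WT mice and rose for 2 of 12 in PXR-KO mice, Cd68 (1.11) and Marco (4.22). Their per-animal median ran from -0.51 to -0.18 in treated WT mice against -0.3 to 0.18 under vehicle, and from 0.08 to 0.4 in treated PXR-KO mice against -0.32 to 0.48. Hepatocyte markers fell for 2 of 9 in WT mice, Hnf4a (-0.45) and Fgb (-0.29), with per-animal medians from -0.17 to -0.02 against -0.07 to 0.09. Erythroid precursor markers, a dividing lineage, fell for 3 of 7 in WT mice and 1 of 7 in PXR-KO mice, with per-animal medians from -0.56 to -0.28 in treated WT mice against -0.11 to 0.1 under vehicle. T and NK cell markers had no call in either genotype by limma, with 3 of 7 at an unadjusted p under 0.05 in WT mice and 2 in PXR-KO mice. Of B cell markers 1 of 5 fell in WT mice, and of stellate cell markers 2 of 8. The per-animal medians of T and NK cell markers ran from -0.36 to -0.08 in treated WT mice against -0.17 to 0.34, and those of B cell markers from -0.77 to -0.18 against -0.4 to 0.3. Of neutrophil and monocyte markers 2 of 7 rose in WT mice, S100a8 and S100a9, and 1 in PXR-KO mice, S100a8 (2.08), and of cholangiocyte and progenitor markers 1 of 7 rose in WT mice, Afp (1.53).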

How the data were processed

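Total RNA of 20 livers (4 groups of 5 mice) was hybridized to Affymetrix Mouse430_2 arrays. In Rosetta Resolver 7.2 the authors divided each animal's intensity by the vehicle mean of its genotype and deposited the ratio as log10, which was multiplied here by the log2 of 10. Deposited values ran from -2 to 2, no member value was at that limit, and array medians lay between -0.027 and 0.012 on the log2 scale. Replicates were separate mice, and no array was a copy of another (highest correlation 0.593). Intensities and detection calls were not used here, so dim probe sets were kept, signal over background is unknown and the number of arrays limits the precision.

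The test was limma's (lmFit, then eBayes; version 3.58.1 under R 4.3.3) at an adjusted p under 0.05, by the method of Benjamini and Hochberg over 45037 probe sets. Each genotype was fitted on its 10 arrays, and the 2 responses were compared on all 20. The study counted animals past both a fold threshold and a p-value threshold of the array platform, and judged the counts by permuting the group labels. It also used SAM, and limma was used here in place of both. The counts given here of animals past 1.25-fold used the fold alone. Probe sets naming 1 gene (34945) were used, and those naming several (932) or none (9160) were used for no single gene. A gene was counted by 1 probe set, without an _s_ or _x_ mark first and then with the smallest vehicle SD. Values by animal are given for the 3 members of each role with the smallest adjusted p in WT mice and for every member called in PXR-KO mice or in the difference. Of each other list up to 4 genes with the smallest adjusted p of a comparison could be named, and some further genes are named beside them. The members, gene lists, the 4 vehicle animals and the tests were chosen with earlier results of these data known. The fits were tested on simulated data with known changes in the treated WT arrays and none in the PXR-KO arrays, and some of these changes were not called. A response that did not pass the test is therefore not shown to be absent. Alternatives were a block for the replicate number, quantile normalization of the log2 ratios, shifting arrays to 1 median and array weights. Others were trend and robust variances, 1 fit of all groups, the mean over probe sets, and leaving out the 4 vehicle animals or each animal in turn. Promoters were read from a RefSeq table of GRCm38.p6.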

Additional observations from a re-analysis of the deposited data

Results flagged for a closer look

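Groups of 5 animals, 100 in all, were examined for single members and for the median over the members, and chance alone flags about 1 in 20 groups. In 8 cases, all at a member's probe set, an animal lay far from the rest of its group. On the log2 scale these were WT vehicle replicate 3 for Birc5 (-0.96), WT vehicle replicate 1 for Kif2c (-0.39), PXR-KO vehicle replicate 1 for Ect2 (0.72) and Spc24 (0.32), PXR-KO vehicle replicate 2 for Smc2 (-0.6), PXR-KO CMP013 replicate 1 for Cdk1 (-1.3) and Cdca8 (-0.03), and PXR-KO CMP013 replicate 5 for Foxm1 (-0.02).

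At 33 probe sets of the members the response to CMP013 differed between WT and PXR-KO mice in limma, and the difference, WT minus PXR-KO, was above 0 at 31 of them. Among entry regulators it was 2.91 for Ccnb2, 2.91 for Cdc25c, 2.03 for Cdk1, 0.97 for Foxm1 and 0.81 for Nek2. Kinetochore genes gave 2.2 for Spc25, 2.10 for Nuf2, 1.69 for Spc24, 1.31 for Cenpf and 0.85 for Cenpa. Birc5 gave 2.33, Cdca8 1.19 and 0.93, Cdc20 1.49 and 1.33, and Ube2c 2.63. Of the spindle genes, Hmmr gave 1.31, 1.16 and 0.98, Kif2c 1.48 and 0.61, Tpx2 1.34, Nusap1 1.09 and Kif22 0.56. Cytokinesis genes gave 2.57 for Ect2, 2.38 for Racgap1, 1.10 and 0.84 for Prc1 and 0.66 for Anln, and chromosome genes 3.57 for Mki67 and 2.81 for Top2a. Below 0 were 1 probe set of Incenp (-2.60) and 1 of Pttg1 (-1.01). Some of these probe sets, among them those of Cdc25c, Nek2, Cenpa and Kif22, are marked as able to bind related transcripts.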

How the results depend on the processing

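Of 16 members called in WT mice, 7 passed with quantile normalization of the log2 ratios (14.4% of all probe sets became 3.94%) and 8 without the 4 vehicle animals. From 12 to 19 members passed when 1 animal was left out. In PXR-KO mice the 3 calls became 0 with the replicate block and 0 with trend and robust variances (14 and 13 members at an unadjusted p under 0.05 in limma), 1 without the 4 vehicle animals, 5 with array weights, 5 with the mean over probe sets and 8 with all groups in 1 fit, and from 3 to 4 when 1 animal was left out. The share of all probe sets called there was 3.65% in the main fit. In the 6 other fits, in that order, it was 0.264%, 0%, 0.806%, 4.91%, 5.63% (of genes) and 6.77%. The 14 differing responses became 7 with quantile normalization and 22 with the mean over probe sets, and 13 to 18 when 1 animal was left out. The share called at large was 11% of probe sets in the main fit, 2.73% with quantile normalization and 13.8% of genes with the mean over probe sets. With any probe set counted, quantile normalization left 10 of 26 members in WT mice, 2 of 5 in PXR-KO mice and 12 of 27 for the difference, the block left 17, 0 and 26, and leaving out vehicle replicate 1, 4 or 5 of the PXR-KO mice left 3 of their 5. The medians of the members kept their signs, at 0.25, -0.23 and 0.45 with quantile normalization.

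Same-numbered animals did not deviate together (correlations from -0.242 to 0.065, none highest with its own number), so the numbers were not taken to pair the animals. With the replicate block 11 members were called in WT mice and 14 for the difference (6.72% and 8.86% of all probe sets).

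For single members, no called estimate changed sign. With the mean over probe sets some uncalled ones passed the test with the other sign. These were Kif2c in WT mice (0.35, adjusted p = 0.0267), the difference for Spc25 (0.91, adjusted p = 0.0187, against -0.37) and Cenpf in WT mice (0.53, adjusted p = 0.0104, against -0.0). The causes were not tested. A filter on dim probe sets was not run.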
